A study of Mus musculus with 4 samples.

Results

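The Hox genes of clusters a to d were examined in LSK cells, marrow cells sorted as lacking lineage markers and carrying c-Kit and Sca-1, among which are blood stem cells and early progenitors. A gene was a member when the RefSeq transcript named for its probe mapped to a symbol made of Hox, a cluster letter and a number. This gave 39 genes out of 20887 named genes on the array, with 11 in Hoxa, 10 in Hoxb, 9 in Hoxc and 9 in Hoxd. These are all 39 genes of that form in the RefSeq annotation used for names.

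RNA from 4 groups was measured on 1 single-colour array each. Wild-type native and Sf3b1+/- native cells came from C57BL/6 mice aged 20 weeks that had received no transplant (the design text gives 4 mice). Wild-type transplanted and Sf3b1+/- transplanted cells were CD45.2+ donor cells, recovered 9 months after total marrow of either genotype was given to lethally irradiated CD45.1+ recipients (5 recipients), a step taken to exclude effects of the marrow environment. Sf3b1 encodes a core protein of the splicing machinery, and Sf3b1+/- mice are heterozygous for a null allele that is lethal before implantation when homozygous; how the allele was made, the donors' age and the number of mice behind each array are not given in the sources used here. Transplantation, time after it and the age of the cells cannot be told apart in any transplanted against native comparison.

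Hox genes encode homeodomain transcription factors that lie in 4 chromosomal clusters in mammals. Within a cluster the genes follow each other in the order of their numbers, and genes with the same number in different clusters are paralogs. Many Hox proteins bind DNA together with partners of the Pbx and Meis families, and Trithorax and Polycomb complexes maintain the active or silent state of a cluster. In blood, genes of the Hoxa and Hoxb clusters are used in stem cells and early progenitors and are shut down as cells mature; Hoxa9 is needed for normal progenitor function, Hoxb4 can expand stem cells when it is forced on, and Hoxb5 has been used to mark long-term stem cells.

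Signal is given in scaled units: the scanner's processed signal after each array was brought to a common 75th percentile (1990.4 units) of the probes detected everywhere. A probe counted as detected on an array when the scanner software called it well above background. Between 47.7% and 51.5% of spots were detected, lowest on the wild-type native and highest on the Sf3b1+/- transplanted array, and the lowest detected signal lay between 16.3 and 23.9 units. With 1 array per group, a difference between 2 arrays could not be checked against replicates and is given without a p-value. The spread of replicate spots within an array gives, for a difference between arrays, an SD of 0.16 on the log2 scale. It comes from probes with at least 5 spots, whereas each detected Hox probe has 1 spot per array. The scanner software also gives an error for each spot, such as 12.5% for Hoxb6 on the wild-type native array. The spot spread can therefore understate the measurement error of a Hox gene. Where 4 signals are listed, they follow the array order native wild type, native Sf3b1+/-, transplanted wild type, transplanted Sf3b1+/-. The 4 comparisons share arrays in pairs, so their values are set side by side and not treated as repeats. The LSK markers Kit, Ly6a, Cd34, Flt3, Ptprc and Gata2 were detected on all 4 arrays. Markers of mature cells were not absent: Cd3e, Cd4, Vpreb1, Itgam and Csf1r were also detected on every array, whereas Cd8a, the endothelial gene Cdh5 and the stromal gene Cxcl12 were detected on none. Of the other listed endothelial and stromal genes, Pecam1 was detected on all 4 arrays. Col1a1, a collagen gene of stromal cells, was detected on the native arrays alone, at 131.6 and 213.1 units against 13.4 and 12.2 on the transplanted arrays, so that it was at least 6.38-fold lower after transplantation in wild type and at least 13.1-fold lower in Sf3b1+/- cells. Its part in the transplanted against native comparisons was not tested. In bulk RNA, fewer cells of a type and less RNA per cell cannot be told apart.

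Detection split the clusters sharply. On all 4 arrays 12 of the 39 members were detected, namely 7 Hoxa genes (Hoxa2, Hoxa3, Hoxa5, Hoxa6, Hoxa7, Hoxa9 and Hoxa10) and 5 Hoxb genes (Hoxb2 to Hoxb6). Over the whole array 12175 of the 20887 named genes were detected on all 4 arrays. A further 8 members were detected on 1 to 3 arrays, and 19 on none. Hoxd was undetected, with 0 of 9 members called on any array; a signal below the scanner's call does not show absence. The 19 members detected on no array were Hoxa11, Hoxa13, Hoxb1, Hoxb13, Hoxc5, Hoxc8, Hoxc9, Hoxc11, Hoxc12, Hoxc13 and the 9 Hoxd genes. The outer ends of the Hoxb cluster, Hoxb1 and Hoxb13, were thus both dark, while the genes between them were detected on at least 1 array.

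**Figure D1:**
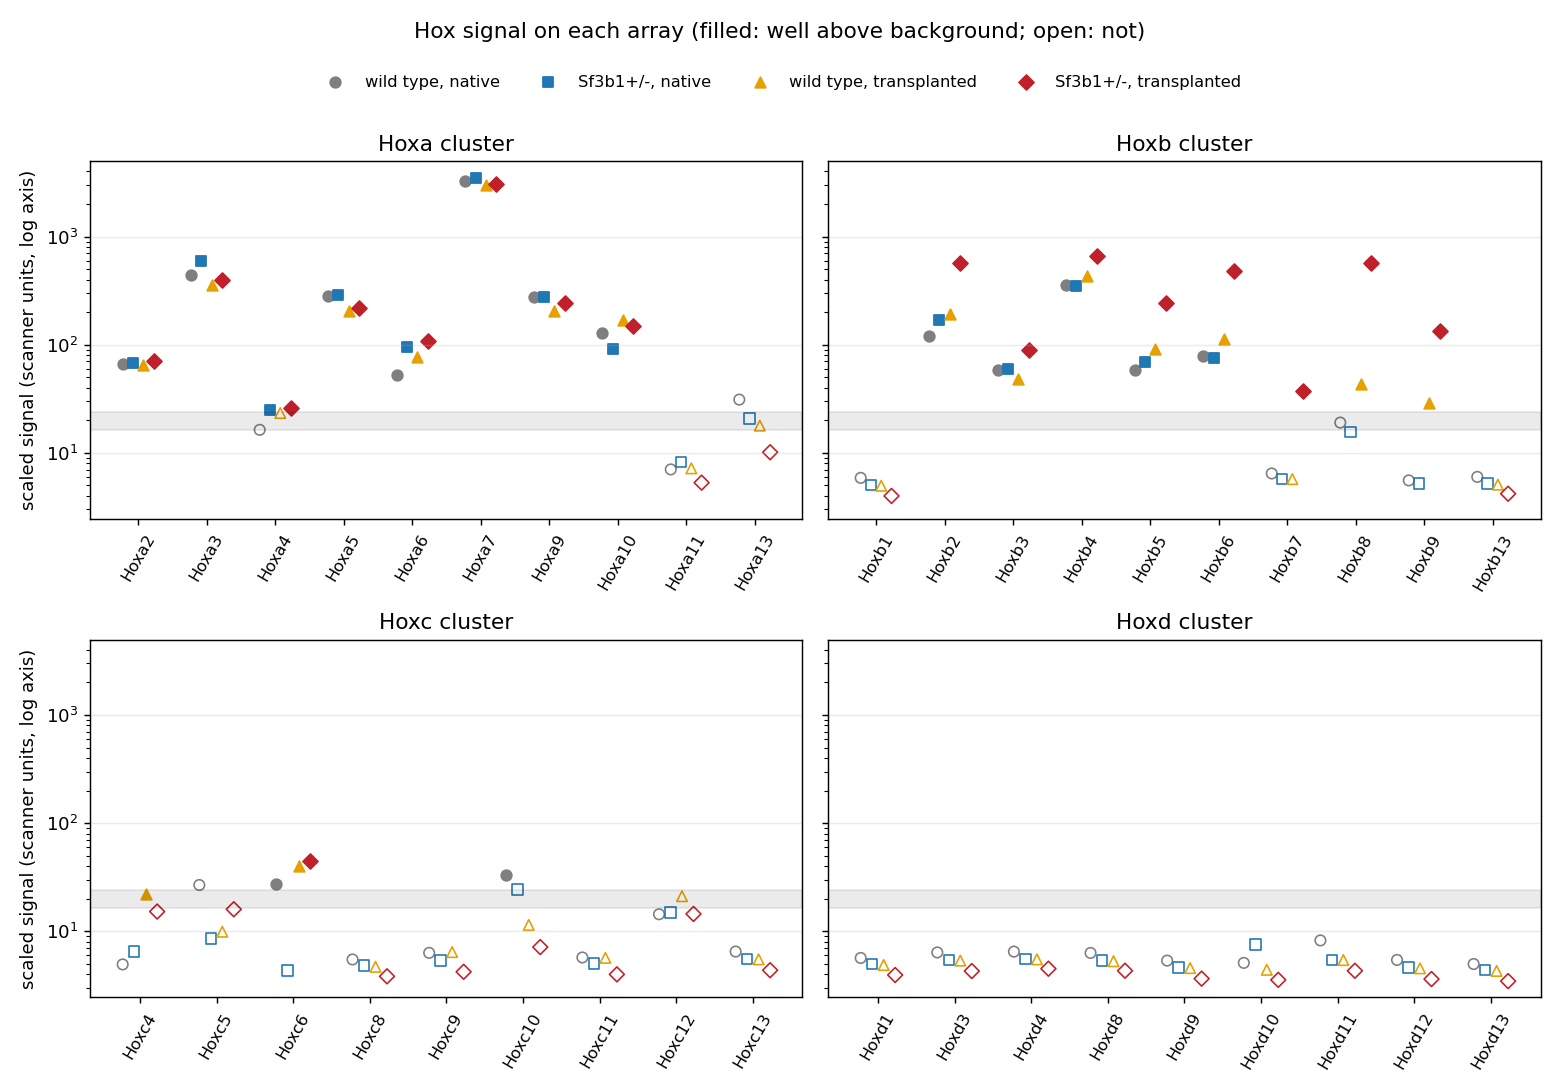
Scaled signal (scanner units, log axis) of Hox genes on each of the 4 arrays, 1 panel per cluster; filled symbols are well above background, open symbols are not, and the grey band spans the lowest detected signal of the 4 arrays (16.3 to 23.9 units). Hoxa symbols lie close together for most genes, Hoxb2 to Hoxb9 lie highest on the Sf3b1+/- transplanted array, and Hoxd has open symbols alone.

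The number of detected members also differed between arrays. It was 14 on each native array, 17 on the wild-type transplanted array and 18 on the Sf3b1+/- transplanted array. Hoxb accounted for most of this, with 5 of 10 members on both native arrays, 7 on the wild-type transplanted array and 8 on the Sf3b1+/- transplanted array. Hoxa went from 7 on the wild-type native array to 9, 8 and 9 on the other arrays in array order, and Hoxc from 2 to 0, 2 and 1. The share of all spots detected was also higher on the transplanted than on the native arrays, and its part in these counts was not tested.

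The first comparison asks whether loss of 1 copy of Sf3b1 is accompanied by other Hox levels in native cells. Of the 12 members detected on all 4 arrays 0 were 2-fold apart, where 0.846% of all 12175 such genes were: 0.222% had 2-fold or more signal in Sf3b1+/- and 0.624% in wild type. Among genes detected on the 2 native arrays these shares were 0.235% and 0.69%, with 0 of 12 members. The median log2 difference of the 12 Hox genes was 0.04, against 0.00 over all compared genes, and their range ran from -0.48 to 0.86. The robust SD over all compared genes was 0.23.

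Within this range Hoxa6, a paralog group 6 gene next to Hoxa7, had the largest native difference with the scaling used here. Its signal in array order was 52.9, 95.8, 77.5 and 108.7 units. Both Sf3b1+/- arrays lay above both wild-type arrays. Sf3b1+/- exceeded wild type 1.81-fold among native and 1.40-fold among transplanted cells. With normexp background correction its log2 differences were 0.24 and 0.09 in place of 0.86 and 0.49, and in native cells it then ranked below Hoxa3 (0.34) and, in size, Hoxa10 (-0.35). In the fit over all 4 arrays with setting as a second term, the Sf3b1+/- coefficient of Hoxa6 was 0.67 ± 0.15 (SE) on the log2 scale with limma's adjusted p of 0.23.

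Hoxa10, whose protein acts in myeloid and megakaryocyte development, was the member furthest in the other direction. It measured 127.6, 91.5, 168.5 and 150.2 units, so that both transplanted arrays lay above both native ones. The genotype difference was -0.48 in native and -0.17 in transplanted cells, the latter about as large as the spot spread and positive with spike-in scaling (0.43). Its setting differences, 0.40 in wild type and 0.71 in Sf3b1+/-, were positive under all 9 alternative settings, and the setting coefficient was 0.56 ± 0.14 (SE; limma adjusted p = 0.092).

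Of the other Hoxa genes detected on all 4 arrays, Hoxa3 had the largest native genotype difference with the scaling used here. Hoxa7 measured 3238, 3509, 2997 and 3042 units. Hoxa9 measured 274.2, 277.5, 203.9 and 242 units, and Hoxa5 measured 280.7, 289.4, 206.9 and 216.5. The genotype differences of Hoxa2, Hoxa5, Hoxa7 and Hoxa9 lay between 0.02 and 0.12 in native and between 0.02 and 0.25 in transplanted cells. Hoxa2 and Hoxa9 in native cells and Hoxa2 and Hoxa5 in transplanted cells were below 0 under at least 1 alternative, at -0.02, -0.04, -0.05 and -0.04. Hoxa3 measured 441.6, 589.7, 358.3 and 393.2 units, a genotype difference of 0.42 in native and 0.13 in transplanted cells. Hoxa2, a paralog group 2 gene best known from hindbrain patterning, stayed between 64.7 and 71.1 units on all arrays.

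A second probe of Hoxa9 was detected on all 4 arrays too. It gave genotype differences of 0.36 and 0.06 where the main probe gave 0.02 and 0.25, so the probes shared a sign but not a size. Its setting differences were -0.56 in wild type and -0.86 in Sf3b1+/-, where the main probe gave -0.43 and -0.20. At the edge of detection, Hoxa4 was detected on the Sf3b1+/- arrays alone, at 24.9 and 25.8 units, with bounds of at least 1.04-fold and at least 1.11-fold over wild type.

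The second comparison sets Sf3b1+/- against wild-type donor cells recovered after transplantation. Here the 7 highest Hox differences between arrays that both detected the gene were all in Hoxb. Of the 12 members detected on all 4 arrays 3 (Hoxb2, Hoxb5 and Hoxb6) were 2-fold or more higher in Sf3b1+/- transplanted cells and 0 were lower by as much. Over all compared genes 1.47% were higher, 0.789% lower and 2.26% either. With normexp background correction the count was 2, since Hoxb5 stood at 0.96, against 0.559% of all genes higher on that footing. All 5 Hoxb genes were above 0, with a median of 1.41 and a range of 0.61 to 2.09. The 7 Hoxa genes had a median of 0.13 and a range of -0.17 to 0.49. The median over all compared genes was 0.00 and their robust SD 0.37. The count of 3 became 5 of 16 members when genes had to be detected on the 2 transplanted arrays alone, which adds Hoxb8 and Hoxb9, with 1.71% of 12721 genes higher and 0.951% lower on that footing; this filter was added after the data had been seen.

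Hoxb8, whose forced expression keeps myeloid progenitors dividing, differed most. It measured 19.0 and 15.6 units in wild-type and Sf3b1+/- native cells, neither of them detected, 43.7 in wild-type transplanted cells and 564.4 in Sf3b1+/- transplanted cells. The Sf3b1+/- transplanted array was alone at a high level. Its signal was 12.9-fold that of the wild-type transplanted array, with a scanner error of 14.7% on the wild-type and 10.02% on the Sf3b1+/- spot. This placed Hoxb8 at rank 1 of the 12721 genes detected on both transplanted arrays, and at rank 1 or 2 under 6 other scalings or background corrections, where its log2 difference ran from 2.47 to 4.28. Against native Sf3b1+/- cells the signal was at least 27.4-fold higher.

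Hoxb9, a paralog of Hoxa9, was likewise highest on the Sf3b1+/- transplanted array. It measured 5.55 and 5.22 units in wild-type and Sf3b1+/- native cells, neither detected, 29.1 in wild-type transplanted and 133 in Sf3b1+/- transplanted cells. The transplanted pair was 4.58-fold apart, at rank 10, and 0.96 apart on the log2 scale with normexp, the lowest of the 6 alternatives (rank 84). Hoxb7 was detected on the Sf3b1+/- transplanted array alone, at 37.5 units against 5.71 to 6.44 on the others, which bounds it at 1.82-fold higher or more than in wild-type transplanted cells.

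Hoxb6 measured 78.9, 75.9, 112.3 and 479 units in array order. The native arrays differed by less than the spot spread, and the Sf3b1+/- transplanted array exceeded every other. The genotype difference was -0.06 in native and 2.09 in transplanted cells, 4.26-fold in the latter.

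Hoxb5, the long-term stem cell marker, measured 58.7, 68.5, 90.95 and 241.2 units in the same array order. Its genotype difference was 0.22 in native and 1.41 (2.65-fold) in transplanted cells. Hoxb2 measured 120.1, 168.9, 191.5 and 574 units, with genotype differences of 0.49 and 1.58 (3.00-fold). For Hoxb5 and Hoxb2 the order of the 4 arrays was the same, from wild-type native to Sf3b1+/- transplanted.

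Hoxb3 and Hoxb4, which lie between Hoxb2 and Hoxb5, differed less than those genes between the transplanted arrays. Hoxb4, the gene that expands stem cells when forced on, measured 356.9, 351.3, 430.1 and 658.3 units, a genotype difference of -0.02 in native and 0.61 (1.53-fold) in transplanted cells. Hoxb3 measured 58.4, 59.9, 47.9 and 89.4 units, with differences of 0.04 and 0.90; its second probe gave 0.14 and 0.56. The transplanted genotype difference of all 5 Hoxb genes was positive under each of the 9 alternative settings.

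**Figure D2:**
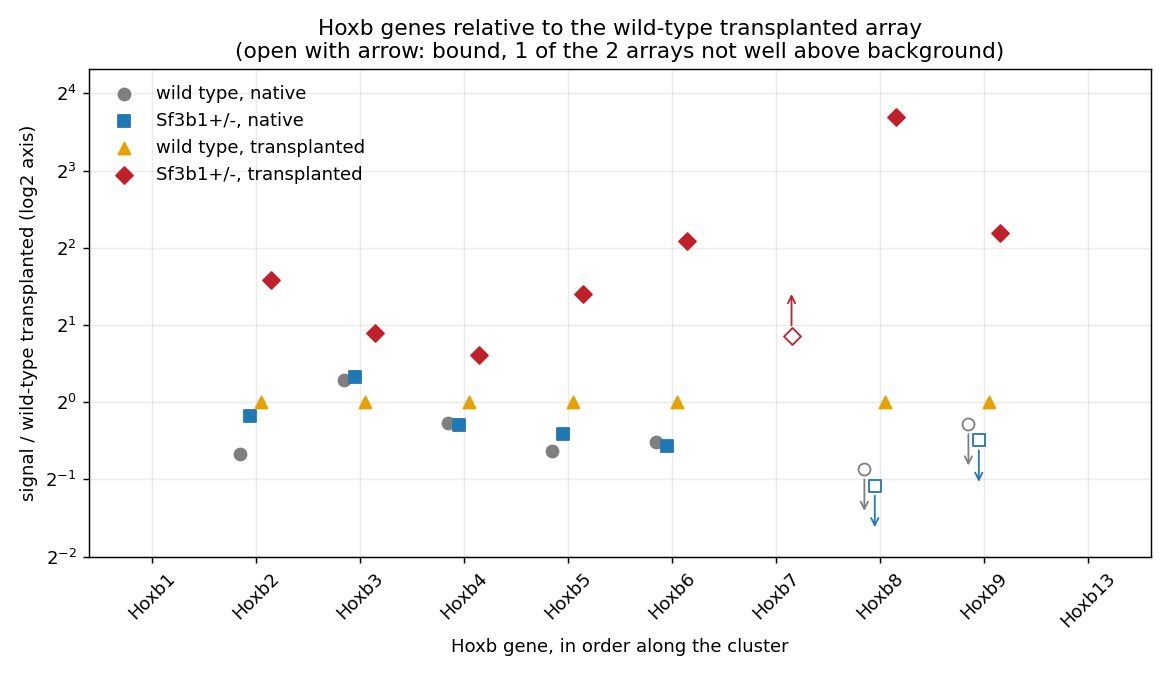
Signal of each Hoxb gene divided by its signal on the wild-type transplanted array (log2 axis), in order along the cluster; filled symbols are detected on both arrays, open symbols with arrows are bounds, and Hoxb1 and Hoxb13 have no symbol because no array detected them. The Sf3b1+/- transplanted array lies above 1 from Hoxb2 to Hoxb9, lowest for Hoxb4 at 1.53-fold and highest for Hoxb8 at 12.9-fold.

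The promoters of 22 members were present in the RefSeq promoter table (build GRCm38.p6), among them 3 Hoxb genes, Hoxb4, Hoxb8 and Hoxb1. They are shown because they span the range of the cluster: the Hoxb gene with the largest difference between the transplanted arrays, the one with the smallest, and an undetected one. Each is the 250 bases before the annotated start on the plus strand, at chr11:96281655-96281904 for Hoxb8, chr11:96318017-96318266 for Hoxb4 and chr11:96365508-96365757 for Hoxb1. Capitals mark matches, on either strand, to TTTATNG (a Cdx-type site), TGATNNAT (a Pbx-Hox site), TGACAG (a Meis site) and TATAAA (the TATA box).
Hoxb8: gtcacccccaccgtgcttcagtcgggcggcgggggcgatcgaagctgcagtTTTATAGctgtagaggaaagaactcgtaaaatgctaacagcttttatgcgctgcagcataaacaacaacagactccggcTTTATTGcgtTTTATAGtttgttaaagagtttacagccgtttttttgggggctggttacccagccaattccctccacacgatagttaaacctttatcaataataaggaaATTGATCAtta
Hoxb4: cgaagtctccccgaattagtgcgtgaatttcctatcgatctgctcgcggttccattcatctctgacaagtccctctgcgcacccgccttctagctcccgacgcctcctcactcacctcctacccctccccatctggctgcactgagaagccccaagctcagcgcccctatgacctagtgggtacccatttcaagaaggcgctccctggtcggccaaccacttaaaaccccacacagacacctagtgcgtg
Hoxb1: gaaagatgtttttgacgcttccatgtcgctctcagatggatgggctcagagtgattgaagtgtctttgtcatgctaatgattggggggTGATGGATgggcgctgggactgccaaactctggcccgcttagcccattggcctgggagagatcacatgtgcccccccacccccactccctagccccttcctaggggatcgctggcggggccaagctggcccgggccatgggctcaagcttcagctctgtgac
The Hoxb8 window held 3 matches to TTTATNG, of which 2 overlap a match to the reverse complement of TATAAA, and 1 match to TGATNNAT. The Hoxb1 window held 1 match to TGATNNAT and the Hoxb4 window none of the 4. Over all 32851 promoter windows of this length 9.81% held TTTATNG, 7.68% TGATNNAT, 15.9% TGACAG and 12.4% TATAAA, so that a match is a description of these letters and no more.

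Hox clusters also hold microRNA genes, which are named here because 2 of them sit among the Hoxb genes with the differences above. Mir10a lies beside Hoxb4 and Mir196a-1 between Hoxb9 and Hoxb13; miR-196 is known to direct cleavage of Hoxb8 messenger RNA. Mature microRNAs were not measured by these arrays. Capitals mark the seed, bases 2 to 8, and the RefSeq sequences fall into 2 seed groups that each span more than 1 cluster.
mmu-miR-10a-5p: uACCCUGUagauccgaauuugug
mmu-miR-10b-5p: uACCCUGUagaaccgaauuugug
mmu-miR-196a-5p: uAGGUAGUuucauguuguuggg
mmu-miR-196b-5p: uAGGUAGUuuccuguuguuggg
In GRCm38.p6 miR-10a-5p is at chr11:96317186-96317208 in Hoxb and miR-10b-5p at chr2:74726074-74726096 in Hoxd. The miR-196a-5p sequence is encoded at chr11:96265187-96265208 in Hoxb and chr15:102973365-102973386 in Hoxc, and miR-196b-5p, on the minus strand, at chr6:52230129-52230150 in Hoxa.

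The third comparison sets wild-type transplanted against wild-type native cells, which differ in transplantation but not in genotype. Of the 12 members 0 were 2-fold apart, where 2.51% of all compared genes were, 1.52% higher and 0.986% lower. Among genes detected on both arrays compared these shares were 1.56% and 1.05%, with 0 of 13 members. The Hoxb median was 0.51, with 4 of 5 genes above 0, and the Hoxa median -0.11, with 5 of 7 below 0 (0.31 for Hoxa with spike-in scaling, where the median of all compared genes was 0.41). Hoxb2 stood at 0.67, Hoxb5 at 0.63 and Hoxb6 at 0.51, and with normexp at 0.35, 0.22 and 0.27. At the far end of the cluster, Hoxb8 and Hoxb9 were detected in transplanted and not in native wild-type cells, with bounds of at least 1.83-fold and at least 1.22-fold. Among Hoxa genes Hoxa6 stood at 0.55, while Hoxa5 and Hoxa9 stood at -0.44 and -0.43, values that were negative under all 9 alternatives but close to 0 with spike-in scaling (-0.02 and -0.01).

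The fourth comparison sets the transplanted against the native Sf3b1+/- cells. Of the 12 members 3 were at least 2-fold higher, again Hoxb2, Hoxb5 and Hoxb6, and 0 lower by as much; over all compared genes the shares were 3.49% and 1.19%, together 4.68%. Over genes detected on the 2 arrays compared the shares were 3.68% and 1.22%. Hoxb6 was 6.31-fold, Hoxb5 3.52-fold and Hoxb2 3.40-fold higher, with Hoxb4 at 1.87-fold and Hoxb3 at 1.49-fold. With normexp the log2 differences of Hoxb6 and Hoxb5 were 1.80 and 1.17, in place of 2.66 and 1.82. The Hoxb median was 1.77 and the Hoxa median -0.20, which turned to 0.05 with detection on at least 2 arrays and to 0.60 with spike-in scaling, below the 0.79 shift of all compared genes. Hoxb3 went in opposite directions in the genotypes, with -0.29 in wild type and 0.58 in Sf3b1+/- cells; with spike-in scaling both were positive, at 0.14 and 1.37.

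**Figure D3:**
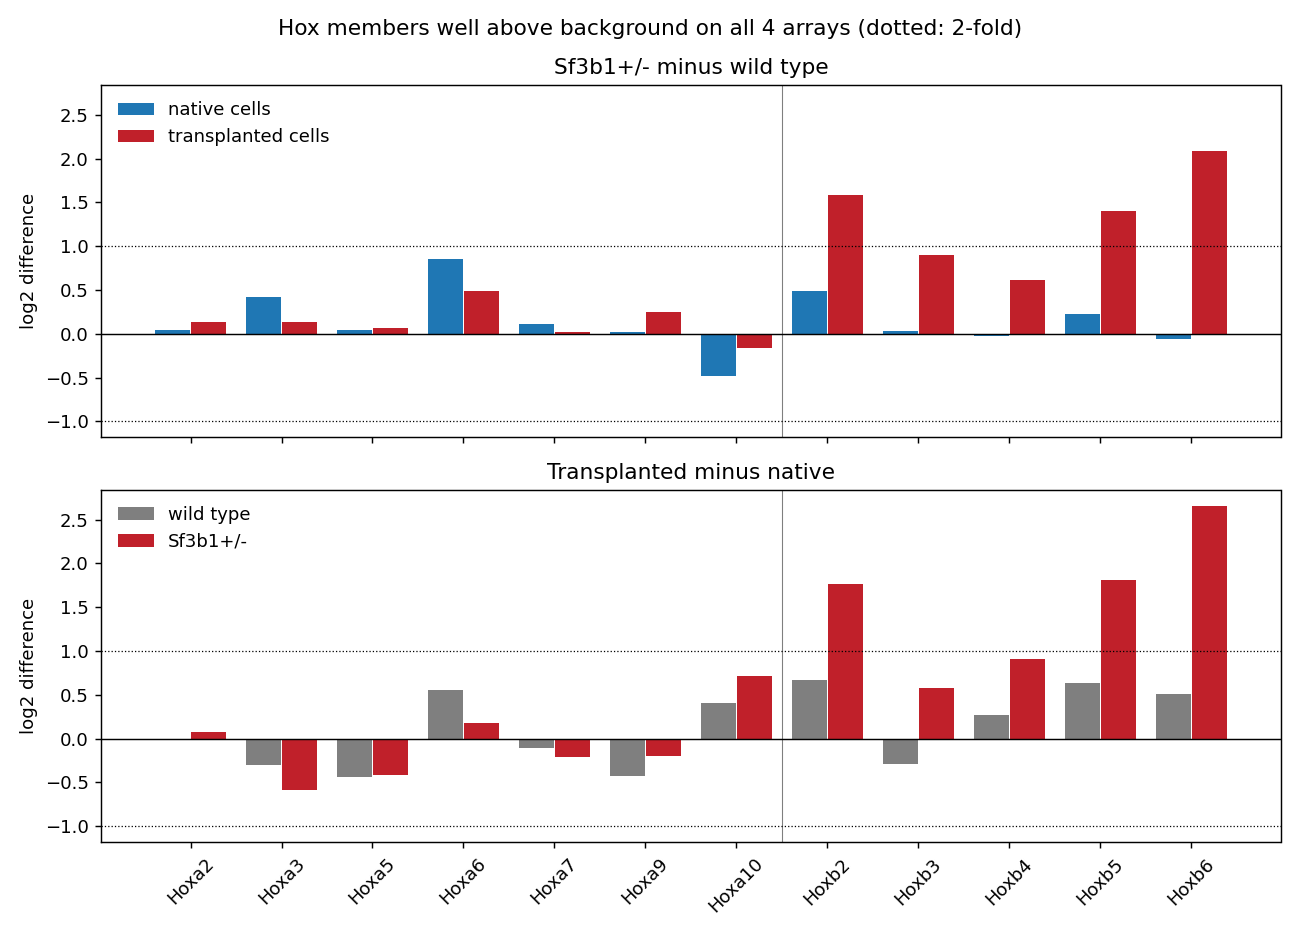
Log2 differences of the 12 Hox genes detected on all 4 arrays, for Sf3b1+/- minus wild type (upper panel) and transplanted minus native (lower panel); each bar is 1 array minus another, so there is no error bar, and dotted lines mark 2-fold. The tallest bars are those of Hoxb2, Hoxb5 and Hoxb6 that involve the Sf3b1+/- transplanted array, up to 2.66, while Hoxa bars stay between -0.58 and 0.86.

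The transplanted genotype difference minus the native genotype difference is the genotype-by-setting contrast, which does not by itself show which array differs. It was 2.15 for Hoxb6, 1.18 for Hoxb5, 1.09 for Hoxb2, 0.86 for Hoxb3 and 0.64 for Hoxb4. For the 7 Hoxa genes it lay between -0.37 and 0.31. This contrast uses all 4 arrays once and leaves nothing to estimate its error, so it was not tested.

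Genotype and setting were tested together in an additive limma fit over the 4 arrays, leaving each gene 1 residual degree of freedom. For genotype 0 of the 12 members and 0 of 12175 genes (0%) had an adjusted p under 0.05. At an unadjusted p under 0.05 there were 3 members, Hoxa6, Hoxb2 and Hoxb5, all higher in Sf3b1+/-, where 7.47% of all genes were higher and 8.7% lower. Hoxb2 had a coefficient of 1.04 ± 0.27 (SE; limma adjusted p = 0.26) and Hoxb6 one of 1.02 ± 0.49 (limma adjusted p = 0.35), its larger error coming from the unlike native and transplanted differences. For setting 0 of 12 members and 264 genes (2.17%) passed at an adjusted p under 0.05, and 7 members had an unadjusted p under 0.05, 5 higher and 2 lower in transplanted cells, where 14.3% of all genes were higher and 14.3% lower. The closest were Hoxb2 with 1.22 ± 0.27 (limma adjusted p = 0.081) and Hoxb5 with 1.22 ± 0.29 (limma adjusted p = 0.085), both higher in transplanted cells. The labels do not say which animals stand behind each array. With 1 array per group, the residual of this fit is each gene's genotype-by-setting contrast, moderated by that of all genes. These p-values therefore do not measure a spread between like arrays, technical or biological.

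Hoxc showed scattered signal near the limit. Hoxc6 measured 27.1, 4.35 (not detected), 39.8 and 44.98 units in array order. The Sf3b1+/- native array was thus the odd one, with a bound of at least 1.32-fold lower than wild type and at least 2.18-fold lower than the transplanted Sf3b1+/- array. Hoxc10 was detected in wild-type native cells alone, at 33.1 units, and Hoxc4 in wild-type transplanted cells alone, at 22.1 units.

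Genes that accompany Hox function were compared from lists. Of the Hox partner genes 11 were listed and 9 detected on all 4 arrays, with Meis2 and Pknox2 detected on none. In any of the 4 comparisons 0 of the 9 were 2-fold apart. Over all compared genes the shares were 0.846% and 2.26% between genotypes in native and transplanted cells. Between settings they were 2.51% in wild type and 4.68% in Sf3b1+/-. At such shares 0 of 9 does not set the partners apart. The partner median was -0.10 in the native and 0.01 in the transplanted genotype comparison. Meis1, the main Meis protein of blood stem cells, measured 14123, 13097, 11692 and 11629 units in array order. Pbx3 measured 342.1, 394.6, 372.4 and 643.2 units, and was 0.79 higher in Sf3b1+/- than in wild-type transplanted cells.

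Of 33 genes that regulate Hox clusters 32 were on the array by name and 29 were detected on all 4 arrays. The Cdx genes Cdx1, Cdx2 and Cdx4, homeobox activators of Hox genes in embryos, were detected on none. In the transplanted genotype comparison the list median was -0.04, and 1 of the 29 was at least 2-fold higher and 0 lower. Over all compared genes 1.47% were higher and 0.789% lower by as much. The 1 regulator was Rarg, a retinoic acid receptor, at 435.5, 609.1, 451 and 975.2 units, which is 2.16-fold higher in Sf3b1+/- transplanted cells. The Trithorax partner Men1 stood at 0.38 and 0.26 and the Polycomb gene Ezh2 at 0.05 and -0.05 in the native and transplanted genotype comparisons. Kmt2a was not matched to a probe by accession and is not analysed here.

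The 10 listed blood genes tied to Hox activity were all detected on all 4 arrays, and 0 of them were 2-fold apart between genotypes in either setting. Over all compared genes 0.846% were so in native and 2.26% in transplanted cells, so 0 of 10 does not set these genes apart. Between settings, Id2, an inhibitor of helix-loop-helix factors, was higher in transplanted cells by 1.35 in wild type and 1.24 in Sf3b1+/-. Flt3, a receptor of early lymphoid and myeloid progenitors, was 1.20 lower in transplanted than in native Sf3b1+/- cells and 0.61 lower in wild type.

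Genes that flank the clusters were compared as well. Of 23 listed neighbours 21 were on the array and 17 were detected on all 4 arrays. Between genotypes 0 of the 17 were 2-fold apart in either setting. Over all compared genes 0.846% were so in native and 2.26% in transplanted cells. At such shares 0 of 17 does not set the neighbours apart from other genes. The list medians were 0.03 in native and 0.02 in transplanted cells. Skap1, on the Hoxb1 side of the cluster, measured 92.7, 80.6, 185.6 and 176.7 units and thus followed the setting, with genotype differences of -0.20 and -0.07. Snx11, on the same side, stood at 0.18 and 0.09. On the Hoxb13 side, Ttll6 was detected on the wild-type transplanted array alone, at 34.2 units against 10.9 in Sf3b1+/- transplanted cells, a bound of at least 2.09-fold lower. Calcoco2, also on that side, was detected on both wild-type arrays, at 37.2 and 29.0 units, and on neither Sf3b1+/- array, at 22.9 and 14.8 units. It was at least 1.63-fold lower in Sf3b1+/- native and at least 1.78-fold lower in Sf3b1+/- transplanted cells, so that in transplanted cells both neighbours differed in the direction opposite to Hoxb2 to Hoxb9. The RefSeq annotation lists 31 further genes between the outermost Hox genes of the 4 clusters, of which 3 had a probe matched by accession. Gm53, a noncoding gene between Hoxb9 and Hoxb13, and Hoxd3os1 were detected on no array. Hoxa11os, antisense to Hoxa11, was detected on both wild-type arrays, at 40 and 51.8 units, and on neither Sf3b1+/- array, at 23.6 and 20.1 units.

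**Figure D4:**
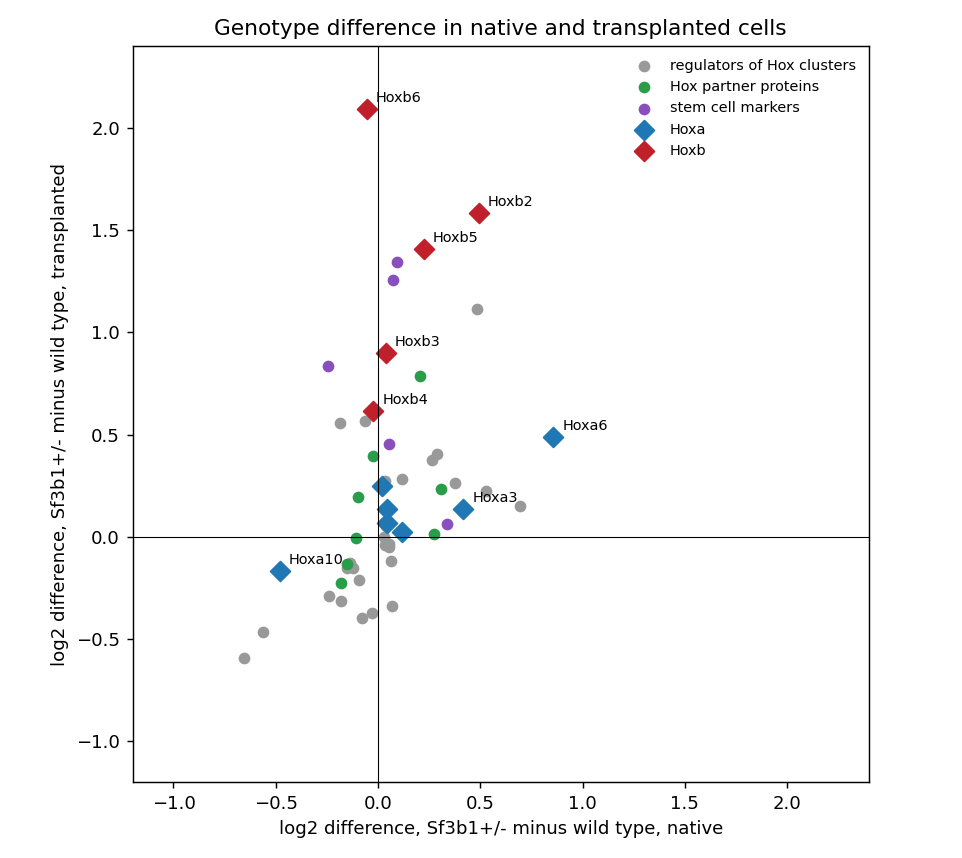
Log2 difference of Sf3b1+/- minus wild type in native (horizontal) and transplanted cells (vertical) for genes detected on all 4 arrays; each symbol is 1 gene of the Hoxa, Hoxb, partner, regulator or stem cell marker group. The 5 Hoxb genes lie along the vertical axis from 0.61 to 2.09 with native values between -0.06 and 0.49, the 7 Hoxa genes stay between -0.17 and 0.49 vertically, and the partner gene Pbx3 lies at 0.79.

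Marker genes of stem cells and of other cells also differed between the transplanted arrays. All 6 stem cell markers (Slamf1, Procr, Tek, Hlf, Mecom and Fgd5) were on the array and 5 were detected on all 4 arrays, of which 2 were at least 2-fold higher in Sf3b1+/- than in wild-type transplanted cells, with a list median of 0.84; over all compared genes 1.47% were higher and 0.789% lower by as much. Slamf1 measured 83.0, 88.6, 206.7 and 524.8 units, which ranks the arrays as Hoxb5 does, whereas Hlf measured 5213, 6582, 3102 and 3242 units. The summed stem cell marker signal was 7606, 8649, 5878 and 8340.4 units. Hlf made up 52.8% to 76.1% of it on every array but the Sf3b1+/- transplanted one, where Procr was the largest part. All 4 megakaryocyte markers were detected on every array and 3 were at least 2-fold higher in the same comparison, with sums of 23312, 36919.5, 29323 and 55990.2 units. The megakaryocyte median genotype difference was 0.58 in native and 1.23 in transplanted cells, and the Hoxb median was 0.04 and 1.41. The 4 lymphoid-primed markers summed to 58671, 56854, 53549 and 27002 units, of which Dntt alone made up at least 99.1% on each array, and 1 of them, Il7r, was at least 2-fold lower. The 4 matched B cell markers summed to 10302, 2345, 965.6 and 645.8 units in array order, of which Vpreb1 made up at least 93.8%. The 4 matched granulocyte and macrophage markers summed to 28904, 26290, 32535 and 26752 units, with a median of -0.34 in the transplanted genotype comparison. Among them S100a8 was at least 2-fold lower, at 1649 against 3918 units, and Itgam stood at -0.42. The T cell markers Cd3e and Cd4 stood at -0.42 and -0.46. The erythroid gene Hba-a1 and the natural killer gene Klrb1c were also at least 2-fold higher in Sf3b1+/- transplanted cells, by 1.28 and 1.31 on the log2 scale. The part of these cell type differences in the Hoxb values was not tested.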

How the data were processed

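RNA from sorted LSK cells (20 ng of total RNA per array, per the labels) was labelled with Cy3 and read on 4 arrays of Agilent design 028005, 1 per group. The deposited scanner files hold spot intensity: per the file headers, Feature Extraction 10.7.1.1 subtracted background and detrended within arrays. In the series table the authors deposited ratio values, in each of which processed signal is divided by 1 constant per array (on the log2 scale r = 1.00 on every array); larger means more signal, no centring was found, and the sources used here do not name the tool. Column medians were 0.081, 0.074, 0.082 and 0.075.

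Spots with an outlier flag (112 to 125 per array) were left out, none was saturated, and spots of a probe were averaged as log2. Detected spots averaged 49.5%, under the 50% limit, so the 75th percentile came from probes detected on all 4 arrays. Of 55681 probes 27509 were named by RefSeq accession (GRCm38.p6, names and gene order alone). The probe with the highest mean stood for its gene, and comparisons used genes detected on all 4 arrays. Differences between single arrays carry no test; limma 3.58.1 in R 4.3.3 (lmFit, eBayes, two-sided, Benjamini-Hochberg over all genes) fitted genotype and setting. Tested on simulated data for the genotype comparison over both settings with 12175 genes, it found 47% of the 2-fold and 97% of the 4-fold changes. How well limma finds a genotype difference present in transplanted cells alone, such as that of Hoxb6, was not tested. A difference against an undetected array is a bound: the detected signal over the higher of the undetected probe's own signal and the lowest detected signal of that array. Members were all analysed and counted, but some items are not reported here by name or value; other genes come from lists. Members and lists were chosen with earlier results of these data known. All arrays lay on 1 slide, so position and group cannot be told apart. The number of arrays limits the precision.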

Additional observations from a re-analysis of the deposited data

Results flagged for a closer look

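Hoxb3 had setting differences of opposite sign in the genotypes. Transplanted minus native was -0.29 on the log2 scale in wild type and 0.58 in Sf3b1+/- cells, each larger than the spot spread of 0.16, with 1 array per group. That spread comes from probes with at least 5 spots, whereas this probe has 1 spot per array. Its scanner error was 13.1% on the wild-type native and 13.3% on the wild-type transplanted array, so the wild-type value is less clear of measurement error than the spot spread implies. The difference between them was not tested, and with spike-in scaling the wild-type value was 0.14 and the Sf3b1+/- value 1.37. Its second probe gave -0.24 and 0.19.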

How the results depend on the processing

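No paired analysis was possible because every group has 1 array and the groups share only replicate number 1. No array could be left out either, since without it the additive fit has no residual. The alternatives kept the sign of every member at least 2-fold apart. The transplanted genotype count of 3 Hox genes at least 2-fold higher became 6 with spike-in scaling, 5 with detection on at least 2 arrays, 6 with no filter, 5 at 1.5-fold and 5 with detection on the 2 arrays compared (added after seeing the data). The share of all genes higher went from 1.47% to 13.7%, 2.05%, 3.32%, 6.64% and 1.71% under these, so the counts are not comparable without it. The Sf3b1+/- setting count of 3 higher became 6, 7, 9 and 5 under the first 4 of these, with 29.4%, 4.8%, 5.4% and 9.58% of all genes against 3.49%, and 0 lower became 3 with no filter (4.32%). The wild-type setting count of 0 higher became 2, 2, 3 and 2, with 6.02%, 2.79%, 3.72% and 5.88% of all genes against 1.52%, and 0 lower became 2 with no filter (3.82%). In native cells 0 higher became 1 with spike-in scaling (0.706%) and 1 at 1.5-fold (1.83%), and 0 lower became 1 with detection on at least 2 arrays (1.34%) and 2 with no filter (3.54%). Counts without the filter include genes that no array detected. Spike-in scaling moved the median of all compared genes by 0.22 and 0.60 in the native and transplanted genotype comparisons and by 0.41 and 0.79 in the wild-type and Sf3b1+/- setting comparisons. In the limma fits 0 members with an adjusted p under 0.05 became 5 for genotype with spike-in scaling and, for setting, 8 with spike-in scaling, 4 with normexp and 4 with a variance trend. Over all genes the calls went from 0 to 102 for genotype with normexp, 179 with the trend and 669 with spike-in scaling, and from 264 for setting to 1738, 2327 and 5749; for setting they were 29 with quantile normalization, 74 with probe means, 76 with detection on at least 2 arrays, 111 with cyclic loess, 96 with the series table, 154 with the percentile over all probes and 0 with no filter. The 12 members detected on all arrays became 19 with the scanner's weaker call, positive and significant. Normexp used median spot signals in place of the planned mean signals, and gave the lowest Hoxb3, Hoxb5 and Hoxb6 differences between the transplanted arrays, 0.29, 0.96 and 1.45.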
